A study of Mus musculus with 3 samples.

Results

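Corticosteroid signalling was examined through 10 genes in mpkDCT4a cells, an immortalised line from the mouse distal convoluted tubule. The genes were taken from a fixed list and matched by GENCODE M21 symbol, and all 10 were found among the 55487 genes of the table. They comprise the receptor genes Nr3c1 and Nr3c2, the prereceptor enzyme genes Hsd11b1 and Hsd11b2, the receptor co-chaperone genes Fkbp4 and Fkbp5, and the target genes Tsc22d3, Klf9, Sgk1 and Scnn1a. The study made 3 RNA libraries depleted of ribosomal RNA from unmodified (wild-type) cells, labelled as replicates of a single group. All were grown at 37 °C in medium with 2% serum, 50 nM dexamethasone, 10 ng/ml epidermal growth factor, 1 nM triiodothyronine and 5 µg/ml insulin. Dexamethasone is a synthetic glucocorticoid, and no library was grown without it, so a basal level and a level set by the hormone cannot be told apart.

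Corticosteroids act through receptors that wait in the cytosol in a complex with heat shock protein chaperones, move to the nucleus once they bind hormone, and change transcription of target genes. Glucocorticoids bind both the glucocorticoid and the mineralocorticoid receptor. In aldosterone-responsive cells of the distal nephron, the enzyme made from Hsd11b2 inactivates cortisol and corticosterone and so leaves the mineralocorticoid receptor to aldosterone, while the enzyme made from Hsd11b1 works in the opposite direction. Among the targets, the kinase SGK1 is known for raising the surface amount of the epithelial sodium channel, whose alpha subunit is made from Scnn1a.

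The libraries held between 436983 and 482418 counts, so 1 count was worth 2.07 to 2.31 counts-per-million (CPM). A gene with a mean of at least 1 CPM is called detected, which 2 counts over the 3 libraries can reach. A count of 0 in all libraries is taken to allow a level of up to 2.20 CPM, the worth of 3 counts in the pooled libraries. That limit lies above the floor for detection. CPM compare a gene between libraries, and transcripts-per-million (TPM), which divide by the summed length of a gene's annotated exons, compare genes with each other. Levels are mean ± SD (n = 3 libraries). The intervals, like the limits for a count of 0, reflect counting error alone. The labels do not say whether the libraries came from separate cultures, so p-values speak of the spread among these libraries, which could be purely technical. Of 12 distal convoluted tubule markers 5 were detected and 2 reached 10 CPM, led by the kinase gene Wnk4 at 40.0 ± 9.56 TPM. The defining cotransporter gene Slc12a3 and the marker Pvalb were at 0 counts, as were Klhl3, Calb1, Emx1, Sall3 and Tmem52b. None of 19 markers of other cell types was detected, and 17 of them had 0 counts. With a replicate left out 1 to 2 of the 19 passed 1 CPM, on single counts.

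Of the 10 genes 8 were detected, against 22.5% of all genes of the table and 50.6% of protein-coding genes. Nr3c2 and Hsd11b1 were the ones below 1 CPM. The 10 genes had a median of 29.0 TPM, beside 31.4 TPM for detected protein-coding genes and 1.51 TPM for all protein-coding genes. None of the 8 detected genes passed a test of differences between the libraries, a chi-square test of counts against library size. After Benjamini-Hochberg adjustment over 12473 genes it called 0.0401% of them, and the adjusted p-values of the 8 genes lay between 0.902 and 0.988. With its 7 counts Hsd11b2 could not have been called, however they fell among the libraries. For Scnn1a, Sgk1, Tsc22d3 and Klf9, with 16, 25, 71 and 110 counts, the test could find only large differences. The fewer the counts, the larger the difference had to be. None of the 8 had an unadjusted p under 0.05, against 4.89% of genes tested. At most 2.25% of the 50-base stretches of any of the 10 genes occur in another annotated gene, the most being in Nr3c2.

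**Figure D1:**
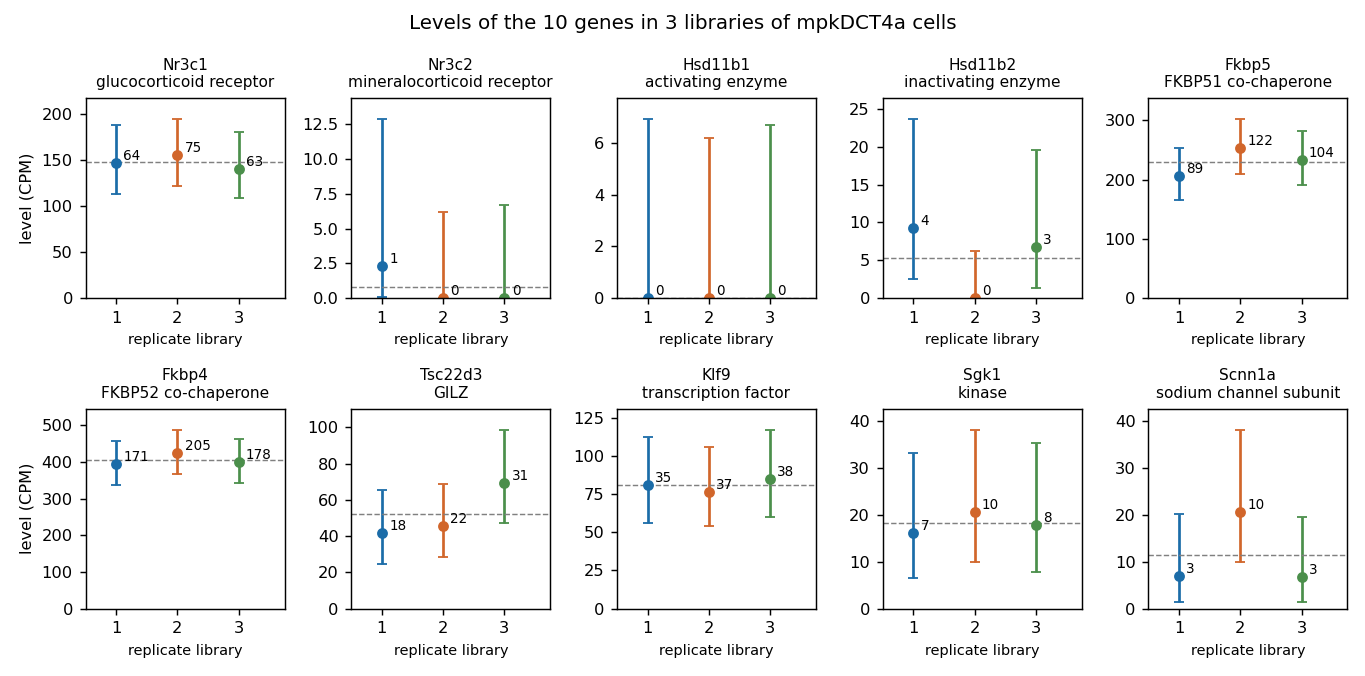
Levels of the 10 genes in CPM on the y axis (each panel has its own scale, from 0) in replicate libraries 1, 2 and 3, with the raw count beside each point. Bars are 95% exact Poisson intervals, or the limit of 3 counts where a library has 0, and the dashed line is the mean: Fkbp4, Fkbp5, Nr3c1 and Klf9 were nearly level across libraries, whereas Hsd11b2 and Scnn1a rest on 7 and 16 counts.

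Nearly all receptor counts came from the glucocorticoid receptor gene. Nr3c1 (ENSMUSG00000024431, GRCm38 chromosome 18, 39410545 to 39519421, minus strand), the gene of that receptor, had 64, 75 and 63 counts in replicates 1, 2 and 3, or 148, 155 and 141 CPM. All libraries lay close to the mean of 148 ± 7.10 CPM, and per length the level was 70.9 ± 3.55 TPM, above that of 74.4% of detected protein-coding genes. Nr3c2 (ENSMUSG00000031618, chromosome 8, 76899442 to 77245012, plus strand), the gene of the mineralocorticoid receptor, had 1 count in replicate 1 and 0 in the others. The 1 count corresponds to 0.734 CPM over the summed libraries, with a 95% exact Poisson interval of 0.0186 to 4.09 CPM. Of its exon length 3.82% overlaps Gm10649 on the opposite strand. No source used here gives the strand setting of the counting, so the source of a read there cannot be told apart.

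Per length, Nr3c1 had 170 times the level of Nr3c2, with a 95% exact binomial interval of 30.2 to 6755, and was higher in 3 of 3 libraries. Without replicate 1 Nr3c2 has 0 counts and the ratio becomes at least 38.8 against a limit of 3 counts, with an interval from 31.1, and without replicate 2 it was 107 (18.9 to 4259). The progesterone receptor gene Pgr and the oestrogen receptor genes Esr1 and Esr2 had 0 counts, so 1 of the 5 steroid receptor genes listed was detected. Without replicate 2 or without replicate 3 it was 2, since the 1 count of Nr3c2 then puts it at 1.15 CPM.

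The receptor's co-chaperones were the highest of the 10 genes. Fkbp4 (ENSMUSG00000030357, chromosome 6, 128429735 to 128438677, minus strand) encodes FKBP52, which favours hormone binding and links the receptor complex to dynein for transport to the nucleus. Fkbp4 had 171, 205 and 178 counts, or 395, 425 and 399 CPM, and the libraries hardly spread around 406 ± 16.2 CPM. At 535 ± 26.1 TPM it lay above 98.3% of detected protein-coding genes. Fkbp5 (ENSMUSG00000024222, chromosome 17, 28399094 to 28517527, minus strand) encodes FKBP51, which competes with FKBP52 and lowers hormone affinity, and is itself a glucocorticoid target. Fkbp5 had 89, 122 and 104 counts, or 205, 253 and 233 CPM. Replicate 1 was lowest, within counting error (chi-square p = 0.330, adjusted 0.939), around a mean of 230 ± 23.8 CPM.

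Fkbp5 was therefore lower than its relative by reads and by length. Per exon length Fkbp5 had 0.168 times the level of Fkbp4 (95% interval 0.146 to 0.193), lower in 3 of 3 libraries. The size of this gap depends on the gene model, since the annotated exons of Fkbp5 add up to 9468 bp but its longest transcript is 3858 bp. With longest transcripts the ratio was 0.395 (0.343 to 0.454), and the level of Fkbp5 moved from 89.6 ± 10.3 to 171 ± 19.4 TPM.

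Most of the other chaperone genes were detected as well. Beside Fkbp4 and Fkbp5 the receptor chaperone list held 16 genes, of which 15 were detected, and all 18 had a median of 169 TPM. The cytosolic HSP90 gene Hsp90ab1 led at 4296 ± 273 TPM, followed by Hspa8 (1165 ± 75.8 TPM), which encodes the constitutive HSP70, then the HSP90 gene Hsp90aa1 (897 ± 64.2 TPM) and Stip1 (801 ± 50.7 TPM), whose product passes receptors from HSP70 to HSP90. Ranks within the gene lists use the length of all exons and were not recomputed with longest transcripts. Of the 50-base stretches of Hsp90aa1 and Hspa8, 47.5% and 39.4% occur in other genes, so their levels are uncertain. The inducible HSP70 genes Hspa1a and Hspa1b had 0 and 50 counts, with 48.5 ± 24.8 TPM for Hspa1b. Of their stretches 66.3% and 62.3% are shared with other genes, so how reads divide between near-identical copies is uncertain. All 18 receptor coregulator genes were detected, with a median of 79.2 TPM. Highest were Smarca4, the motor of the SWI/SNF remodelling complex (246 ± 22.6 TPM), the deacetylase gene Hdac2 (172 ± 14.5 TPM), the Mediator subunit gene Med1 (162 ± 5.53 TPM) and the corepressor gene Ncor1 (136 ± 10.9 TPM).

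Both prereceptor enzyme genes were low or without counts. Hsd11b2 (ENSMUSG00000031891, chromosome 8, 105518755 to 105523988, plus strand) had 4, 0 and 3 counts, or 9.23, 0 and 6.72 CPM. Replicate 2 was the library without a count, where 0 counts allow up to 6.21 CPM, and the spread was within counting error (chi-square p = 0.128, adjusted 0.902). Its mean was 5.32 ± 4.77 CPM, and over the summed libraries the interval was 2.07 to 10.6 CPM. Hsd11b1 (ENSMUSG00000016194, chromosome 1, 193221634 to 193264075, minus strand) had 0 counts in every library. The limit of 3 counts is 2.20 CPM, or 1.91 TPM, and the 95% exact Poisson interval reaches 2.71 CPM, or 2.35 TPM. Per length Hsd11b2 was at least 5.39-fold higher than Hsd11b1, against a limit of 3 counts for Hsd11b1. That bound takes the 7 counts of Hsd11b2 as exact, and with the error of both genes the 95% exact binomial interval began at 3.33. Without replicate 1 the bound was 2.31 and the interval began at 0.955, so it no longer excluded equal levels. The bound was 3.08 (interval from 1.53) without replicate 3 and 2.51 (from 1.55) with longest transcripts.

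Few other genes of steroid metabolism were detected. Beside Hsd11b1 and Hsd11b2 the list of genes for making, converting and exporting steroids held 13, of which 4 were detected, and the median of all 15 was 0 TPM. At a mean of 10 CPM 2 of the 15 would count as detected, against 5 at 1 CPM. Srd5a1, a steroid reductase that also acts on glucocorticoids, stood at 158 ± 5.14 TPM, above Hsd11b2. H6pd, whose enzyme supplies the cofactor that drives the Hsd11b1 enzyme as an activator, was at 76.6 ± 12.1 TPM in libraries with no Hsd11b1 count. Of the 50-base stretches of Srd5a1 15.1% occur in other genes. Star, the cholesterol carrier of steroid-making cells, counted as detected at 1.38 CPM on 2 counts, both in replicate 2. The steroid-making gene Cyp11a1 had 1 count, and Srd5a2 and Hsd3b1 had 0.

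The 4 target genes covered a range from Klf9 to Scnn1a. Klf9 (ENSMUSG00000033863, chromosome 19, 23141226 to 23168134, plus strand) encodes a zinc finger transcription factor induced by glucocorticoids in many tissues. Klf9 had 35, 37 and 38 counts, or 80.8, 76.6 and 85.1 CPM, so that the libraries hardly differed. Its level per length was 61.8 ± 3.44 TPM, above 70.6% of detected protein-coding genes. Tsc22d3 (ENSMUSG00000031431, chromosome X, 140539528 to 140600659, minus strand) encodes GILZ, a leucine zipper protein through which glucocorticoids damp inflammatory signalling. Tsc22d3 had 18, 22 and 31 counts, or 41.5, 45.6 and 69.4 CPM. Replicate 3 was 1.67 times replicate 1, the widest spread among those of the 10 genes with at least 60 counts, but within counting error (chi-square p = 0.142, adjusted 0.902). The mean was 44.3 ± 13.2 TPM.

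Sgk1 and Scnn1a were lower. Sgk1 (ENSMUSG00000019970, chromosome 10, 21882184 to 21999903, plus strand) had 7, 10 and 8 counts, or 16.2, 20.7 and 17.9 CPM, with a mean of 13.7 ± 1.86 TPM that lay above only 27.4% of detected protein-coding genes. The libraries did not stand apart. Scnn1a (ENSMUSG00000030340, chromosome 6, 125320659 to 125344943, plus strand) had 3, 10 and 3 counts, or 6.92, 20.7 and 6.72 CPM. Replicate 2 held most of its counts, with the lowest unadjusted p of the 8 genes (chi-square p = 0.0772, adjusted 0.902), and the mean was 10.2 ± 7.23 TPM.

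The glucocorticoid receptor binds DNA at response elements made of a pair of inverted half-sites. RefSeq windows of 300 bases (250 before and 50 after a start, GRCm38.p6) were at hand for 7 of the 10 genes, in 14 windows. Not covered were Nr3c1, Hsd11b2 and Scnn1a. They were searched on both strands for the palindromic glucocorticoid response element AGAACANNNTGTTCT and for its half-site AGAACA, which reads TGTTCT on the other strand. The half-site is contained in the full element. Across all 32851 windows 0.00913% (3 windows) held the full element and 19.0% a half-site. One of the 3 was a Sgk1 window. It is shown with the element in capitals because Sgk1 is the member with the exact palindrome, together with a Tsc22d3 window that holds a half-site (capitals).
Sgk1, chr10:21993640-21993939, plus strand: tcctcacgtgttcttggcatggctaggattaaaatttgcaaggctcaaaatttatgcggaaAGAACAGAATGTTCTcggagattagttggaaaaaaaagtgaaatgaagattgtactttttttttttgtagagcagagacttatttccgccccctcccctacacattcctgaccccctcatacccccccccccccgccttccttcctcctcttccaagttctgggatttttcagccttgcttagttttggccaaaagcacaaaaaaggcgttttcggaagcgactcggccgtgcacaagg
Tsc22d3, chrX:140600473-140600772, minus strand: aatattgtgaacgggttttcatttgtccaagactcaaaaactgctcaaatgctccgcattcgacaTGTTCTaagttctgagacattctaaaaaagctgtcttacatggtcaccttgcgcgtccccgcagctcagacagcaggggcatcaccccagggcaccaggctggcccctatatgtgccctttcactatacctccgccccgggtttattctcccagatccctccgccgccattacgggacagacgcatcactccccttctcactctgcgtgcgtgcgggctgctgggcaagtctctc
In Sgk1 the element spans 21993701 to 21993715 on chromosome 10. Its centre lies 182 bases upstream of the start to which this window belongs and 958 bases upstream of the next annotated start, at 21994666. The other 5 Sgk1 windows lacked the full element, and 2 of them held a half-site. Gene-level counts do not say which start was used. Per length Sgk1, the gene with the exact element, was at 13.7 ± 1.86 TPM, below Fkbp5, Klf9 and Tsc22d3. Scnn1a, also a target, had no window. The windows of Fkbp5 and Klf9 held neither the element nor a half-site as spelled here. Only exact matches were searched, so elements that differ by a letter were not counted. Sgk1 had 6 windows and Tsc22d3 3, more than Fkbp5 or Klf9, so the chances of a match were unequal. Of the 14 windows 4 held a half-site, against 19.0% of all windows. Whether levels go with a match was not tested. A match describes letters in a window and not binding, and targets can carry elements farther away.

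The same windows differed in CG pairs, which are frequent in promoters of broadly expressed genes. The windows of Fkbp4, Fkbp5 and Klf9 held 33, 32 and 28 CG pairs, where the median of all windows was 7. The single windows of Nr3c2 and Hsd11b1 held 17 and 6. The 6 Sgk1 windows held between 3 and 28, with 10 in the window shown, and the Tsc22d3 windows held 16, 3 and 15. Fkbp5, with 315 counts, and Hsd11b1, with 0, are shown with CG pairs in capitals as the contrast.
Fkbp5, chr17:28486100-28486399, minus strand: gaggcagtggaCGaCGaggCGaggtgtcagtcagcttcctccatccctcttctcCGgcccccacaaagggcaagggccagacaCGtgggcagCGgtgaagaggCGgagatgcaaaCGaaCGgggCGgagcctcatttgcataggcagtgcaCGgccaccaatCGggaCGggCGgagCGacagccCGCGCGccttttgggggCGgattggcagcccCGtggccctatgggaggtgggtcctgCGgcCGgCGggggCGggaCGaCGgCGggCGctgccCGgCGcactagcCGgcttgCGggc
Hsd11b1, chr1:193242311-193242610, minus strand: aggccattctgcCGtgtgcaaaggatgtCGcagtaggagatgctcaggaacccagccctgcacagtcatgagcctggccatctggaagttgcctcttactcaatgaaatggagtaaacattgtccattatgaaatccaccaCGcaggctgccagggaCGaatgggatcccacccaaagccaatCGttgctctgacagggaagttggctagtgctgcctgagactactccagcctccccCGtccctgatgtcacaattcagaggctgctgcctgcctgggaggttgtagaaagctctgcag
Nr3c2, with 1 count, had more CG pairs than 68.6% of all windows, and 5 windows of Sgk1 and Tsc22d3, both detected, held 8 or fewer. These 7 genes are too few for a relation to be tested.

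Ordered by summed counts per exon length, the genes ran Fkbp4, Fkbp5, Nr3c1, Klf9, Tsc22d3, Sgk1, Scnn1a, Hsd11b2, Nr3c2 and Hsd11b1. Of the 9 steps between neighbours 5 had a 95% interval that excluded equal levels, and among all 45 pairs of the 10 genes 40 did. These intervals were not adjusted for their number. Nr3c1 was 1.15 times Klf9 (0.908 to 1.47), Sgk1 was 1.32 times Scnn1a (0.676 to 2.64) and Scnn1a was 1.02 times Hsd11b2 (0.396 to 2.93), so none of these neighbours could be told apart. Nr3c2 and Hsd11b1, with 1 and 0 counts, could not be either. Klf9 was 1.40 times Tsc22d3 (1.03 to 1.91), but with longest transcripts Tsc22d3 was 1.01 times Klf9 (0.736 to 1.37). Tsc22d3 was 3.21 times Sgk1 (2.01 to 5.28) and Fkbp4 was 5.96 times Fkbp5 (5.18 to 6.86). The widest of the 5 steps, Hsd11b2 at 24.6 times Nr3c2 (3.16 to 1110), rests on 7 and 1 counts. Fkbp5 was 1.27 times Nr3c1 (1.06 to 1.52). That interval included equal levels without replicate 2 (from 0.981) and without replicate 3 (from 0.990). Without replicate 2 only 3 neighbouring steps excluded equal levels, and Hsd11b2 moved up past Sgk1 and Scnn1a.

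**Figure D2:**
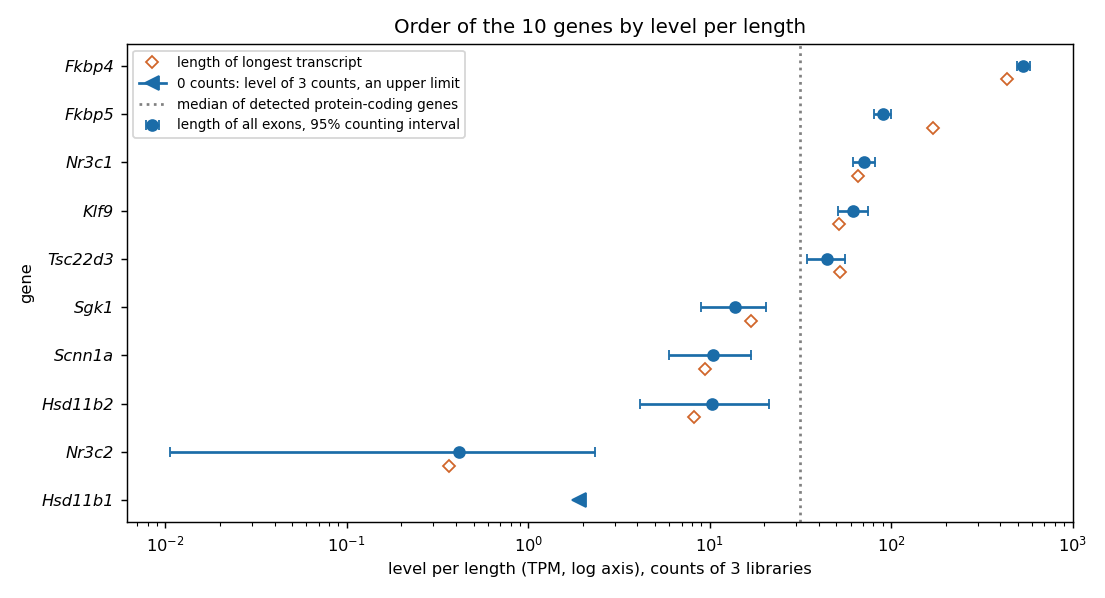
Level per length of each gene in TPM (x axis, log scale) from the counts of 3 libraries, with 95% exact Poisson intervals; the triangle marks the limit of 3 counts for Hsd11b1 and open diamonds use the longest transcript. Fkbp4, Fkbp5, Nr3c1, Klf9 and Tsc22d3 lie above the dotted median of detected protein-coding genes (31.4 TPM), and the other 5 genes lie below it.

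Each target was set beside its closest relatives or partners. Within the SGK kinases, Sgk1 (25 counts) had 4.35 times the level per length of Sgk2 (4 counts; interval 1.502 to 17.2), and without replicate 3 the ratio was 2.96 with an interval of 0.965 to 12.1. Without replicate 2 it was 10.4 (1.61 to 439). Sgk1 could not be ranked against Sgk3 (41 counts), the family member recruited to endosomes. The ratio was 1.78 (1.04 to 3.00) with all exons and 0.744 (0.434 to 1.25) with longest transcripts, and leaving out any of the 3 replicates gave intervals that included 1. Nedd4l, the ubiquitin ligase that SGK1 phosphorylates and that removes the sodium channel from the surface, was higher than Sgk1. The ratio of Sgk1 to Nedd4l was 0.577 (0.362 to 0.884), or 0.631 (0.353 to 1.06) without replicate 3.

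All 15 genes of the SGK list, which holds these kinases with their activators and substrates, were detected, with a median of 30.1 TPM. The list was led by Gsk3b (156 ± 13.0 TPM) and Foxo3 (134 ± 13.3 TPM), both known substrates of SGK or AKT kinases, then Ndrg1 (87.5 ± 22.6 TPM), a substrate used as a readout of SGK1 activity, and Mapkap1 (66.3 ± 9.004 TPM), a subunit of the kinase complex that activates SGK1.

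Tsc22d3 was not the main member of its family. Tsc22d1 had 201.6 ± 24.2 TPM, and Tsc22d3 had 0.220 times its level per length (0.169 to 0.281), lower in 3 of 3 libraries. Tsc22d2 and Tsc22d4 were at 39.2 ± 0.882 and 30.6 ± 3.52 TPM, so all 4 genes were detected. Klf9 and Klf13, a close relative that binds similar GC-rich sites, did not differ beyond counting error, with a ratio of 1.18 (0.912 to 1.52). Of the 5 relatives of Klf9 in the KLF list 4 were detected, including Klf16 (95.7 ± 12.9 TPM) and Klf11 (59.8 ± 7.86 TPM), and Klf14 had 0 counts.

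The sodium channel itself was represented by its alpha subunit. Scnn1a had 16 counts, Scnn1b had 0 and Scnn1g had 1. Per length Scnn1a was at least 3.40-fold higher than Scnn1b, against a limit of 3 counts, with a 95% exact binomial interval from 2.46, and had 11.6 times the level of Scnn1g (1.80 to 486). Both rested on replicate 2. Without it the bound for Scnn1b was 1.27, with a binomial interval from 0.750, and the ratio to Scnn1g was 4.34 (0.527 to 199.8). Without replicate 1 Scnn1g has 0 counts and the ratio becomes at least 3.14 (interval from 2.21). Of 18 genes listed for the channel and its regulators 14 were detected (77.8%), with a median of 8.29 TPM, and 8 reached 10 CPM. The ligase gene Nedd4 (466 ± 10.9 TPM) and Atp1b1, which encodes the beta subunit of the sodium pump (157 ± 26.4 TPM), led. Of the 50-base stretches of Atp1b1 15.8% occur in other genes, and 18.7% of its exon length overlaps Nme7 on the opposite strand. Cnksr3, a scaffold that assembles SGK1 with the channel's regulators, was at 77.9 ± 9.44 TPM, and Furin, a protease that activates the channel by cleavage, at 45.4 ± 6.34 TPM. Fxyd4, a pump regulator of the collecting duct, and the potassium channel gene Kcnj1 had 0 counts.

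**Figure D3:**
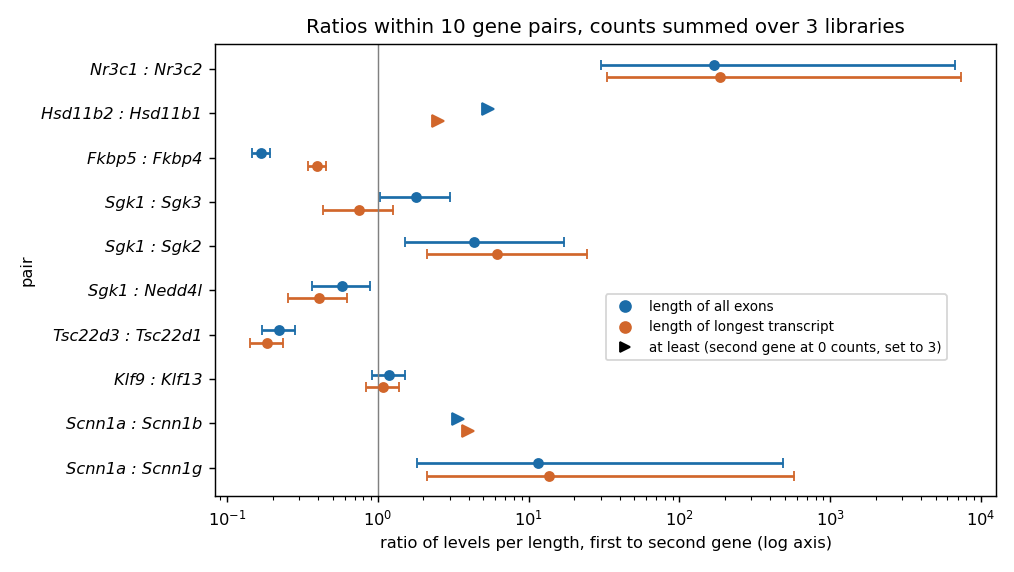
Ratio of levels per length, first to second gene (x axis, log scale), for 10 pairs, from counts summed over 3 libraries with 95% exact binomial intervals; triangles are lower bounds against 3 counts. Blue uses all exons and orange the longest transcript, and the ratio of Sgk1 to Sgk3 is the one that falls on opposite sides of 1 (1.78 and 0.744).

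In all, 10 pairs were compared, and with 3 libraries and all exons 9 had an interval that excluded equal levels, the exception being Klf9 with Klf13. Only Nr3c1 with Nr3c2, Fkbp5 with Fkbp4 and Tsc22d3 with Tsc22d1 kept such an interval in every setting tried. For each of the other pairs it included equal levels with at least 1 replicate left out, and Sgk1 with Sgk3 also turned with longest transcripts. Between libraries, 8 of the 10 pairs kept one direction in all 3. Klf9 was higher than Klf13 in 2 libraries and lower in 1. Hsd11b2 was higher than Hsd11b1 in 2 libraries, and in replicate 2 both had 0 counts. An exact two-sided sign-flip permutation test over the 3 libraries cannot give a p below 0.25, which all 10 pairs gave, also after Benjamini-Hochberg adjustment. For Klf9 with Klf13 and Hsd11b2 with Hsd11b1 that value rests on the 0.5 added to each count. In replicate 2 the added 0.5 made the first gene of each the higher per length.

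Glucocorticoid target genes were widely but not uniformly detected. Of 29 genes known to be induced by glucocorticoids in various tissues 24 were detected (82.8%, against 50.6% of protein-coding genes), and the median of all 29 was 22.8 TPM, beside 1.51 TPM for all protein-coding genes. The 24 detected ones had a median of 40.8 TPM, beside 31.4 TPM for detected protein-coding genes. At a mean of 10 CPM 18 of the 29 would count as detected, against 40.8% of protein-coding genes. The list was chosen with earlier results of these data known, so these shares describe it and test nothing. Highest were Anxa1, the gene of the anti-inflammatory protein annexin A1 (467 ± 66.1 TPM), the transcription factor gene Cebpb (313 ± 111 TPM), Errfi1, whose product restrains the epidermal growth factor receptor (114 ± 20.2 TPM), and the metallothionein gene Mt1 (103 ± 33.4 TPM). Klf9, Tsc22d3 and Sgk1 stood below these 4 genes, and Fkbp5 ranked 5 in the list. These ranks use the length of all exons. With longest transcripts Fkbp5 was at 171 ± 19.4 TPM, so its rank depends on the gene model. Cebpd and Pck1, which encodes a gluconeogenic enzyme of liver and proximal tubule, had 1 count each, and the liver enzyme gene Tat and the kinase gene Map3k6 had 0. Of the 50-base stretches of Cebpb 18.1% occur in another gene.

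**Figure D4:**
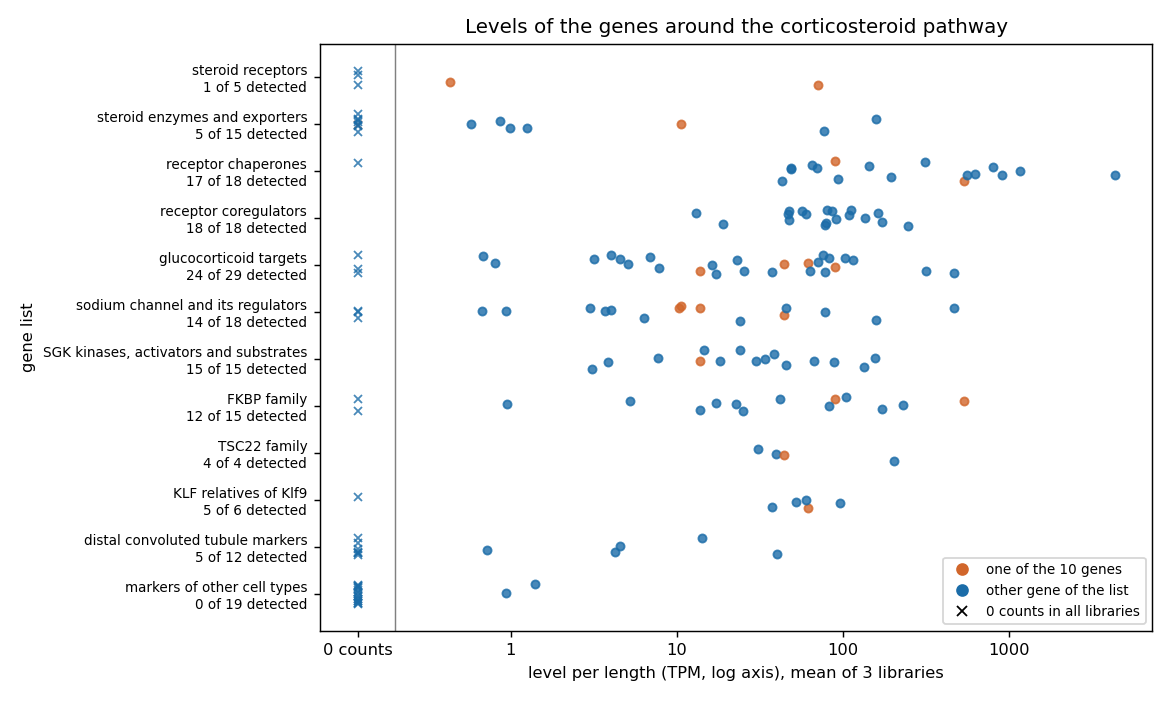
Level per length in TPM (x axis, log scale, mean of 3 libraries) of every gene in the 12 lists on the y axis, with the 10 genes in orange and crosses at the left for 0 counts. Receptor chaperones (17 of 18 detected) and coregulators (18 of 18) reach high levels, whereas steroid receptors (1 of 5) and steroid enzymes (5 of 15) are mostly at 0 counts.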

How the data were processed

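RNA was measured in 3 libraries of mpkDCT4a cells, each from 500 ng of RNA cut into pieces of about 300 bp, per the labels' protocols. The deposited table holds the authors' raw counts of reads per Ensembl gene. Reads were aligned to mm10 with tools that include STAR and HTSeq, per the submitters' processing notes, and their versions and the handling of strand and of multiply matching reads are not stated in the sources used here. The members and gene lists were chosen with earlier results of these data known, so no list or rule is independent of them.

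Counts were scaled to CPM with library totals times trimmed-mean factors (edgeR 4.0.16, R 4.3.3). TPM used exon-union lengths of GENCODE M21 (GRCm38). 260 identifiers without a match (0.0230% of counts) were left out of TPM. Replicates were compared by a chi-square test per gene with Benjamini-Hochberg adjustment over all genes of at least 1 CPM and a threshold of 0.05, tested on simulated data. Pairs were compared by summed counts per length with 95% Clopper-Pearson intervals, and by log2 ratios of count + 0.5 with an exact sign-flip test. Read sharing counted 50-base stretches found in transcripts of other genes on either strand. Named were all 10 genes, their partners in the pairs, and in the 12 lists the 4 highest and up to 4 genes below 1 CPM in list order. For the distal convoluted tubule markers these were the highest and all at 0 counts. Hspa1b was added after its value was seen. The markers of other cell types are given by count. Some genes of these lists are not reported here. Star (2 counts) is named as one of the 4 highest. Statistics used scipy 1.17.1 with numpy 2.4.6 and pandas 2.3.3, and plots matplotlib 3.10.9. The alternatives tried were library totals or size factors from DESeq2 1.42.0, other thresholds, lengths and pseudocounts, and leaving out each replicate.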

Additional observations from a re-analysis of the deposited data

How the results depend on the processing

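Another scaling (DESeq2 size factors or library totals) moved no level of the 10 genes by more than 0.817%, and none of the 50 recomputed levels moved by more than 1 SD. The number detected was 7 with a count required in every library or a mean of 10 CPM, and 8 to 9 with each replicate left out. The replicate test called 5 genes over the table and 1 to 3 with a replicate left out, and in each setting tried it called none of those of the 10 genes that it tested (8 at 1 CPM). Where Hsd11b2 was tested, it had too few counts to be called. Neighbouring steps in the order that excluded equal levels numbered 5, and 3 to 4 with a replicate left out. The ratio of Sgk1 to Sgk3 turned to 0.744 with longest transcripts, and with a replicate left out it lay between 1.69 and 1.84 with intervals that included 1. With a replicate left out, the other ratios that lost their call in at least 1 such setting ranged from 2.96 to 10.4 for Sgk1 to Sgk2, from 0.530 to 0.631 for Sgk1 to Nedd4l and from 3.14 to 9.41 for Scnn1a to Scnn1g, of which the lowest is a bound. The bounds ranged from 2.31 to 5.39 for Hsd11b2 to Hsd11b1 and from 1.27 to 2.76 for Scnn1a to Scnn1b. Pseudocounts of 0.1 and 1 turned no mean log2 ratio. No paired analysis was possible because the labels give 1 group. At this depth, genes with few counts (Nr3c2, Hsd11b1, Hsd11b2, Scnn1a, Sgk1) are limited by counting error. Counts cannot separate fewer cells with a transcript from less transcript per cell.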

Other observations

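The FKBP family had 12 of its 15 genes detected (median 25.01 TPM). Fkbp4 was the highest, followed by Fkbp1a, the gene of the small FK506-binding protein FKBP12, at 228.5 ± 24.2 TPM. Next came Fkbp9 and Fkbp2, which encode isomerases of the endoplasmic reticulum, at 172 ± 3.96 and 104 ± 10.6 TPM, and Fkbp5 ranked 5. That rank depends on the gene model, since Fkbp5 was at 171 ± 19.4 TPM with longest transcripts. Fkbp6, which acts in germ cells, and the collagen chaperone gene Fkbp10 had 0 counts, and Fkbp11 had 1.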
